A study of Danio rerio with 6 samples.

Results

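Transcription factors bind DNA and set which genes are copied into RNA, and most of them belong to a few families named for the fold that touches the DNA, such as the zinc finger, the homeodomain, the forkhead and the nuclear receptor. In larval zebrafish these families pattern the fins, the pharyngeal arches, the nervous system and the epidermis, and they also tune lipid synthesis, detoxification and daily rhythm. The genes described here are those whose deposited family annotation names transcription, a zinc finger, a homeobox, a forkhead or a nuclear receptor, less kinase, ubiquitin, transporter and channel families, uncharacterized gene models and a fixed set of stress, AP-1, clock and Nrf regulators. The family words matched 75 of the 670 genes in the deposited table, of which 1 was left out for its kinase family, 1 as uncharacterized and 10 by symbol, leaving 63 genes. The family words also take in zinc finger and transcription complex proteins that act on RNA, ribosomes or membranes, and 9 genes grouped on this basis are described apart.

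Messenger RNA was sequenced from pools of whole larvae, with 3 untreated pools and 3 pools kept in 3 mM H2O2. The labels give the strain Nacre, a line without melanophores, 3 days post fertilization as the age and 2 hours as the treatment time. The paper gives older larvae and a longer treatment in its results, methods and first figure legend. Age and duration were taken here from the labels. Each replicate was a pool of embryos from several mating pairs, larvae were anesthetized in Tricaine before treatment, and whether the untreated pools received Tricaine is not stated. RNA from whole larvae mixes all tissues, so fewer cells of a type and less RNA per cell cannot be told apart.

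Each value is log2(CPM + 1), where CPM is the read count of a gene scaled to a common library size. Each difference is the mean of the H2O2 libraries minus the mean of the untreated ones. It is followed by its standard error (SE), which was moderated toward a variance estimated over the 670 listed genes. The values correspond to whole numbers of reads with library totals of 24727594 to 39766947, the lowest being that of H2O2 replicate 3. The 63 genes had between 35 and 7641 reads in a library. Genes entered the table through the authors' own p from these same libraries, so a gene had to differ to be listed and the counts below describe listed genes only. Among the markers of the whole larva chosen for the analysis, none of those of neurons, epidermis, intestine or muscle is in the table, which says nothing of their expression. The liver marker cp, at 0.55, and the erythrocyte marker slc4a1a, at 0.37, were the only ones of those tissues listed, and their part in the results was not tested.

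None of the 63 genes passed an adjusted p of 0.05 in limma, as none of the table did (0% of 670 genes). At an unadjusted p under 0.05 there were 58 genes, 43 higher and 15 lower in treated larvae, beside 93.3%, 55.5% and 37.8% of the table. The count of higher genes was 28 without untreated replicate 2 and 24 without untreated replicate 3. The treated and untreated values did not overlap in 61 genes, with the treated ones above in 47 and below in 14, beside 93.9%, 58.4% and 35.5% of the table. In all, 48 genes (76.2%) had a positive difference, compared with 61.8% of the table, and this gap was not tested.

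The differences were small, and selection of the table by p left out the smallest ones. The largest was 0.90, in grhl3, and the most negative was −0.75, in cnot7, so that 0 of the 63 genes exceeded 1 in either direction, whereas 45 listed genes did. The median was 0.42 among the higher genes and −0.47 among the lower genes, beside 0.47 and −0.50 in the table. In 15 of the 63 (23.8%) the difference exceeded 0.5 in either direction, beside 44.9% of the table. By unadjusted p the leading members were znf532, cnot7, hbp1 and ubtf, which stood at places 31, 35, 57 and 69 in the table.

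**Figure D1:**
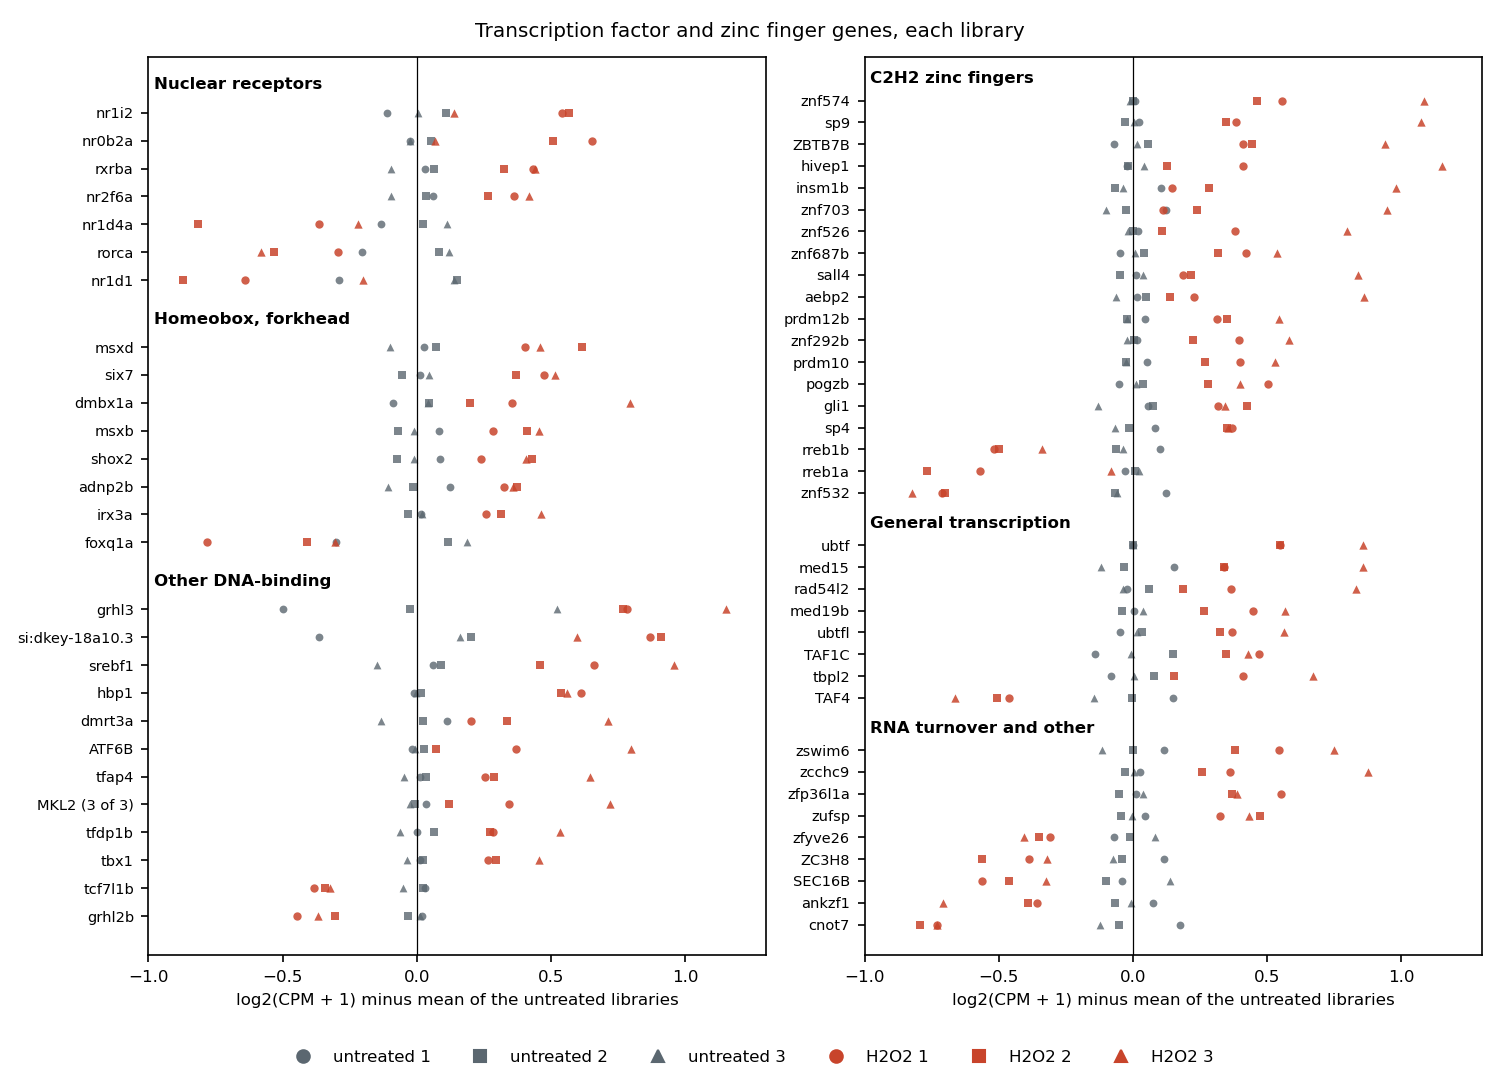
Each row is 1 of the 63 genes, grouped by role, and each point is 1 library, placed at its log2(CPM + 1) minus the mean of the 3 untreated libraries (grey untreated, red H2O2; circles, squares and triangles are replicates 1, 2 and 3). Red points lie to the right in 48 genes and to the left in 15. The red triangle is the farthest point in 35 of the 48 higher genes, beside 316 of the 414 higher genes in the table.

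Epithelial regulators of the grainyhead family differed in opposite directions. Grainyhead factors bind DNA through a fold of their own and keep the epidermal barrier and cell junctions in vertebrates. In grhl3, on chromosome 17 from 26807041 to 26818873 of Zv9, the untreated libraries stood at 1.66, 2.14 and 2.68 and the treated ones at 2.94, 2.93 and 3.31. The groups did not overlap, although the untreated libraries were spread over more than 1 unit. The difference was 0.90 (SE 0.25, limma adjusted p = 0.663), which corresponds to a 2.02-fold higher mean CPM. Its relative grhl2b was at 3.67, 3.62 and 3.66 in untreated and at 3.20, 3.35 and 3.28 in treated larvae, so all treated libraries were lower. This difference was −0.37 (SE 0.11, limma adjusted p = 0.762).

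The second largest difference belonged to si:dkey-18a10.3, a gene model that the deposited files place in the heat shock transcription factor family and that carries no other name. Heat shock factors bind the promoters of chaperone genes under stress. The untreated libraries were at 1.97, 2.54 and 2.50 and the treated ones at 3.20, 3.25 and 2.93. Every treated library was higher, with a difference of 0.79 (SE 0.18, limma adjusted p = 0.406), and H2O2 replicate 3 was the lowest of the treated ones. For srebf1, the sterol regulatory element binding factor that drives lipid synthesis genes, values of 4.81, 4.84 and 4.60 in untreated and 5.41, 5.21 and 5.71 in treated larvae gave a difference of 0.69 (SE 0.16, limma adjusted p = 0.400). All treated libraries lay above all untreated ones. Of 30 symbols of SREBP targets and partners, matched by exact name, 3 were in the table. All 3 were higher, beside 61.8% of the table. Besides srebf1 these were scd, a fatty acid desaturase, at 0.77 (SE 0.17), and fasn, the fatty acid synthase, at 0.46 (SE 0.16). Over all tests 0 of the 3 passed. Their median of 0.69 is the value of srebf1 itself, and the median of the higher genes in the table was 0.47. The paper also lists ldlr as upregulated, a gene that no symbol of the list matched in the table.

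The repressor hbp1, an HMG-box factor known to restrain cell cycle genes in mammals, gave the tightest result among the larger differences. Its libraries were at 4.17, 4.20 and 4.18 in untreated and at 4.80, 4.72 and 4.74 in treated larvae. Neither group spread over more than 0.1 unit, and the difference was 0.57 (SE 0.11, limma adjusted p = 0.273). Another HMG-box factor is tcf7l1b of the T-cell factor family, a repressor of Wnt target genes in the zebrafish embryo. It lay lower in each treated library, at 4.93, 4.97 and 4.99 against 5.34, 5.33 and 5.26 untreated. Its difference was −0.35 (SE 0.11). Among 27 symbols of Hedgehog and Wnt genes, 3 were in the table, namely tcf7l1b, the Hedgehog target and effector gli1 at 0.36 (SE 0.12) and axin2, a Wnt target, at 0.34 (SE 0.12).

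Further DNA-binding factors and a coactivator grouped with them were all higher, by 0.34 to 0.42. They were dmrt3a at 0.42, which marks spinal interneurons, ATF6B at 0.41, a sensor of endoplasmic reticulum stress, and the bHLH factor tfap4 at 0.40. MKL2 (3 of 3), a myocardin-related coactivator of serum response factor that the reference names mrtfbb, was at 0.39, tfdp1b, a dimer partner of E2F, at 0.36, and tbx1, a T-box factor of the pharyngeal arches, at 0.34. In ATF6B and MKL2 (3 of 3) the differences were 0.22 and 0.23 without H2O2 replicate 3. Values of tbx1 were 4.71, 4.72 and 4.66 in untreated and 4.96, 4.99 and 5.15 in treated larvae, a narrow but non-overlapping separation.

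Nuclear receptors bind small lipophilic ligands and act as receptors and transcription factors in one protein. Of the 7 that were listed, 4 were higher and 3 lower, with 0 passing in limma over all tests. Those higher were the receptors nr1i2 and nr0b2a of detoxification and bile acid control, their partner rxrba and the orphan receptor nr2f6a, and those lower belonged to the REV-ERB and ROR branch.

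For nr1i2, the pregnane X receptor that senses xenobiotics, values were 3.17, 3.39 and 3.29 in untreated and 3.82, 3.85 and 3.42 in treated larvae. H2O2 replicate 3 lay only just above the highest untreated library, and the difference was 0.41 (SE 0.15, limma adjusted p = 1). H2O2 replicate 3 was also the lowest treated library in nr0b2a, which encodes the small heterodimer partner, a receptor without a DNA-binding domain that represses bile acid synthesis in mammals. Its untreated libraries were at 3.94, 4.01 and 3.94 and its treated ones at 4.62, 4.47 and 4.03. The difference was 0.41 (SE 0.16), and without H2O2 replicate 3 the differences of nr1i2 and nr0b2a were 0.55 and 0.58. In contrast, rxrba, a retinoid X receptor and obligate partner of many nuclear receptors, was even across the treated libraries, at 6.12, 6.01 and 6.12 against 5.71, 5.75 and 5.59 untreated. This gave 0.40 (SE 0.12, limma adjusted p = 0.710). The orphan receptor nr2f6a of the COUP-TF family was at 5.17, 5.15 and 5.02 in untreated and at 5.48, 5.38 and 5.53 in treated larvae, a difference of 0.35 (SE 0.12). Of 28 symbols for the pregnane X receptor, small heterodimer partner and retinoid X receptors with their partners and targets, 5 were in the table. All 5 were higher, beside 61.8% of the table, but 3 of them were nr1i2, nr0b2a and rxrba themselves. The others were cyp24a1 at 1.67 (SE 0.24), which the paper ties to vitamin D breakdown, and the cholesterol transporter abca1a at 0.83 (SE 0.13). No other target on the list was in the table, which says nothing of their expression.

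In the circadian clock, ROR receptors activate and REV-ERB receptors repress the same DNA elements, which sit in the promoter of the Bmal1 gene in mammals. The REV-ERBα gene nr1d1 had the most negative difference of the nuclear receptors, at −0.57 (SE 0.20, limma adjusted p = 1). Its libraries stood at 5.85, 6.29 and 6.28 in untreated and at 5.50, 5.27 and 5.94 in treated larvae, so that H2O2 replicate 3 lay above untreated replicate 1 and the groups overlapped. Its paralog nr1d4a, one of the least covered of the 63 genes with 41 to 127 reads per library, was at 1.91, 2.07 and 2.16 in untreated and 1.68, 1.23 and 1.83 in treated larvae. The groups were separate, and the difference was −0.47 (SE 0.17) with all libraries and −0.29 without H2O2 replicate 2. The ROR gene rorca was lower as well, at 4.39, 4.15 and 4.10 against 4.48, 4.76 and 4.80, a difference of −0.47 (SE 0.14, limma adjusted p = 0.770). In all 3 genes untreated replicate 1 was the lowest untreated library. Out of 43 symbols of the REV-ERB and ROR clock loop 12 were in the table, with 7 higher and 5 lower and a median of 0.48, beside 0.40 for the whole table, and 0 passed. The 7 higher ones were the cryptochrome genes cry5 at 1.63 (SE 0.21) and cry2b at 0.44 (SE 0.21), the period genes per2 at 1.37 (SE 0.24) and per3 at 0.54 (SE 0.13), the bZIP genes tefa at 0.67 (SE 0.14) and tefb at 0.52 (SE 0.13), and npas2, a partner of Bmal1, at 0.65 (SE 0.13). The treated and untreated values of cry2b overlapped. The 5 lower ones were these 3 receptors together with cry2a, a cryptochrome, at −1.01 (SE 0.14), and nfil3-6, a bZIP repressor, at −0.63 (SE 0.13). The times of collection are not given.

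**Figure D2:**
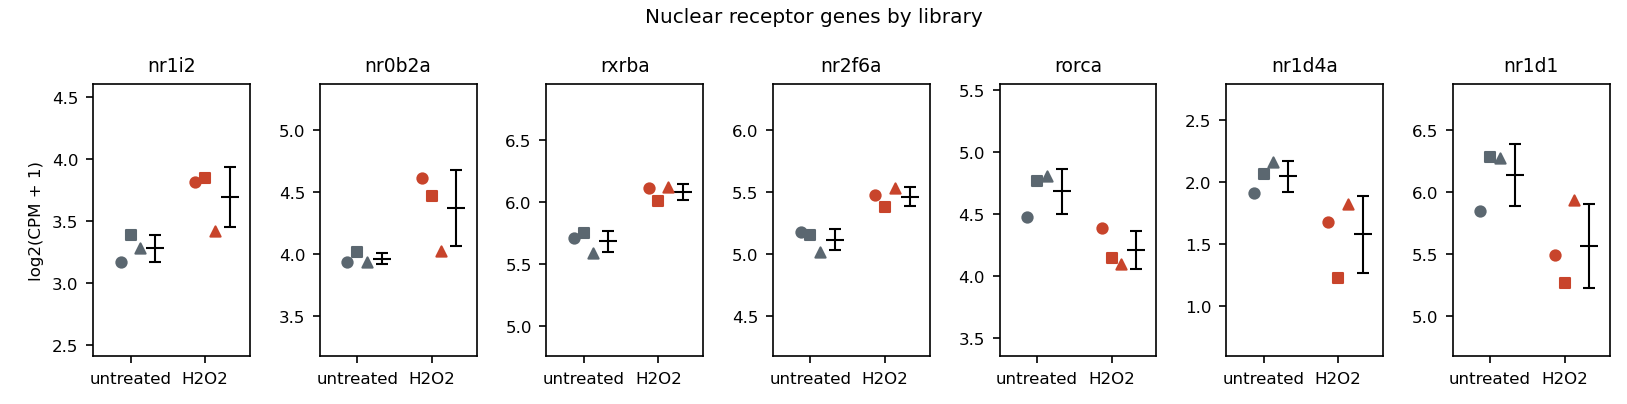
Log2(CPM + 1) of the 7 nuclear receptor genes in each library (grey untreated, red H2O2; circles, squares and triangles are replicates 1, 2 and 3), with the mean and SD of 3 libraries as black bars and an axis of equal length in every panel. The treated libraries lie above the untreated ones in nr1i2, nr0b2a, rxrba and nr2f6a and below in rorca and nr1d4a, while they overlap in nr1d1.

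Homeobox genes encode homeodomain proteins that lay out body regions and cell types. They were higher in 7 of 7 cases, beside 61.8% of the table, and this gap was not tested. Their differences ran from 0.34 to 0.49, with 0 passing over all tests. The pair msxb and msxd is expressed in the fins and dorsal neural tube. In msxd values were 3.27, 3.31 and 3.14 in untreated and 3.64, 3.85 and 3.70 in treated larvae, a difference of 0.49 (SE 0.12, limma adjusted p = 0.521). In msxb they were 4.098, 3.943 and 4.005 and then 4.30, 4.43 and 4.47, a difference of 0.38 (SE 0.12). Both paralogs were thus separated without overlap, as were 93.9% of the table. Leaving out any 1 library gave 0.43 to 0.54 in msxd and 0.35 to 0.43 in msxb.

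The eye and midbrain homeobox genes six7 and dmbx1a both stood at 0.45 (SEs 0.11 and 0.17). Six7 acts in zebrafish cone photoreceptors, and its libraries at 4.69, 4.62 and 4.72 in untreated and 5.15, 5.05 and 5.19 in treated larvae were well apart. The photoreceptor markers in the table had the other direction. Of 35 symbols, a list chosen with earlier results of these data known, 5 were in the table. Of these, 5 of the 5 were lower, by 0.50 to 0.88 on the log2 scale, beside 256 of the 670 genes in the table. The absence of the other symbols on the list says nothing of their expression. Treated and untreated values overlapped in pde6h and grk7a, so 3 of the 5 (60%) stood apart, beside 93.9% of the table. Untreated replicate 1 was the lowest untreated library in each of the 5. The summed CPM of the 5 markers was 94.9 to 158 in untreated and 70.4 to 97.9 in treated libraries. Their part in the value of six7 was not tested. For dmbx1a, 5.35, 5.20 and 5.79 in treated larvae compared with 4.91, 5.05 and 5.04 in untreated larvae, and without H2O2 replicate 3 the difference was 0.28. The remaining homeobox genes were shox2 at 0.36, a limb and brain factor, adnp2b at 0.35 and irx3a at 0.34, an Iroquois factor of neural and kidney patterning. Unlike the homeobox genes, the forkhead gene foxq1a was lower, at 3.37, 3.79 and 3.86 in untreated and 2.89, 3.27 and 3.37 in treated larvae. The highest treated value lay just under the lowest untreated one, and the difference was −0.50 (SE 0.18, limma adjusted p = 1).

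The 19 C2H2 zinc finger factors formed the largest role group. Of these, 16 were higher, beside 61.8% of the table, and 3 were lower, with a median difference of 0.41. Such factors read DNA with tandem fingers that each hold a zinc ion between paired cysteines and histidines. None passed over all tests, and 12 of the higher and 3 of the lower genes had an unadjusted p under 0.05, a smaller share than the 93.3% of the whole table. In 13 of the 16 higher genes H2O2 replicate 3 was the farthest library, as it was in 316 of the 414 higher genes of the table.

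The most marked member of this group was znf532, which had the lowest p of the 63 genes. It was at 4.04, 3.85 and 3.86 in untreated and 3.20, 3.22 and 3.09 in treated larvae, a difference of −0.74 (SE 0.12, limma adjusted p = 0.150) with a wide gap between the groups. The gene lies on chromosome 21 from 9308832 to 9351884. Leaving out any 1 library gave −0.78 to −0.68.

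Both Ras-responsive element binding genes were lower. RREB1 proteins act downstream of Ras signalling and hold fingers spread along a long protein. In rreb1b, 5.15, 5.16 and 5.32 in treated larvae stood against 5.76, 5.60 and 5.62 untreated, a difference of −0.45 (SE 0.12, limma adjusted p = 0.621). In rreb1a untreated libraries were at 4.79, 4.83 and 4.85 and the treated ones at 4.25, 4.06 and 4.74. H2O2 replicate 3 of rreb1a thus stood close to the untreated libraries, and the difference was −0.47 (SE 0.18) with it and −0.67 without it.

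The pair znf574 and znf526, which the files place in 1 family, lay 62137 bases apart on chromosome 16 and on opposite strands. In znf574 the untreated libraries were nearly equal, at 4.06, 4.05 and 4.04, and the treated ones were at 4.60, 4.51 and 5.13, a difference of 0.70 (SE 0.17, limma adjusted p = 0.519). In znf526 they were at 3.799, 3.781 and 3.760 and at 4.16, 3.89 and 4.58. Both genes had their highest value in H2O2 replicate 3 and their lowest treated value in replicate 2, and the difference of znf526 was 0.43 (SE 0.17), or 0.25 without replicate 3.

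Of the Sp family, whose fingers bind GC-rich promoters, sp9 and sp4 differed in their evenness. For sp9, a factor of the fin bud ridge, values were 4.33, 4.28 and 4.31 in untreated and 4.69, 4.65 and 5.38 in treated larvae, a difference of 0.60 (SE 0.20, limma adjusted p = 0.890) that was 0.36 without H2O2 replicate 3. For sp4 they were 5.37, 5.27 and 5.22 and 5.66, 5.64 and 5.64, so the treated libraries agreed closely and the difference was 0.36 (SE 0.11). The enhancer-binding gene hivep1 was at 5.17, 5.17 and 5.23 in untreated and 5.60, 5.32 and 6.34 in treated larvae. Its difference of 0.56 (SE 0.24) was 0.27 without replicate 3. In ZBTB7B, which directs T cell fate in mammals, untreated values of 2.83, 2.96 and 2.92 and treated values of 3.31, 3.35 and 3.84 gave 0.60 (SE 0.16, limma adjusted p = 0.661).

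**Figure D3:**
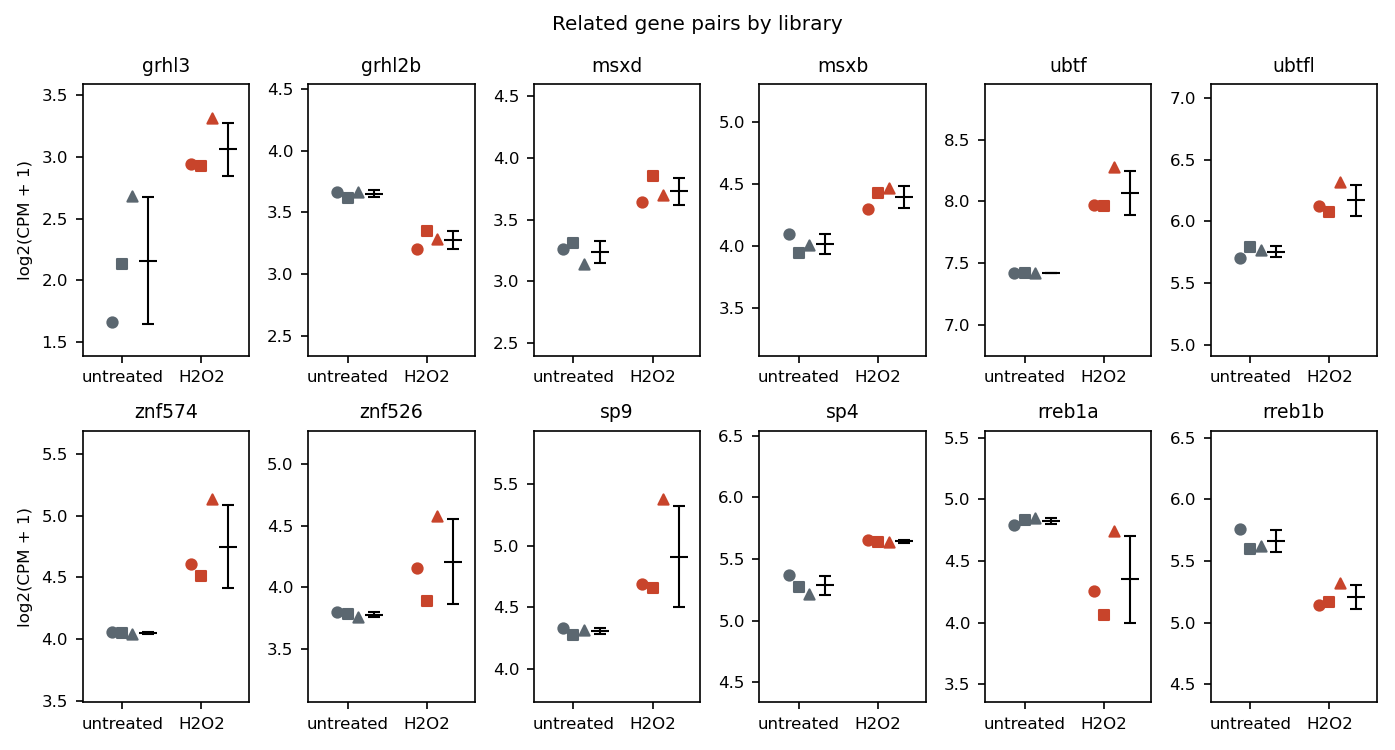
Log2(CPM + 1) in each library for 6 pairs of related genes (grey untreated, red H2O2; circles, squares and triangles are replicates 1, 2 and 3), with the mean and SD of 3 libraries as black bars and an axis of equal length in every panel. The pairs msxd and msxb, ubtf and ubtfl, znf574 and znf526, and sp9 and sp4 were higher in treated larvae, rreb1a and rreb1b were lower, and grhl3 and grhl2b had opposite directions.

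The other C2H2 genes were higher by 0.36 to 0.47. They included insm1b at 0.47, a factor of neuroendocrine differentiation, znf703 at 0.43, sall4 at 0.41, known for stem cell and limb functions, and aebp2 at 0.41, an accessory protein of Polycomb repressive complex 2. Without H2O2 replicate 3 these stood at 0.21, 0.17, 0.20 and 0.18. The values of znf703 were 6.46, 6.31 and 6.23 in untreated and 6.44, 6.57 and 7.28 in treated larvae, so its groups overlapped. By comparison, prdm12b at 0.40, a factor of sensory neurons, pogzb at 0.39, a heterochromatin protein, prdm10 and znf292b at 0.40 and znf687b at 0.43 were higher in each treated library and stayed at 0.31 or more without any 1 library.

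Components of the general machinery were mostly higher as well, in 7 of 8 genes, beside 61.8% of the table. This gap was not tested. RNA polymerase I transcribes ribosomal RNA with the help of UBF, which bends ribosomal DNA, and of selectivity factor SL1. The UBF gene ubtf was at 7.42 in each of the 3 untreated libraries and at 7.97, 7.97 and 8.28 in the treated ones. The difference was 0.65 (SE 0.13, limma adjusted p = 0.291), or 0.55 without H2O2 replicate 3. The SD was 1.37e-04 among untreated and 0.18 among treated libraries. Since the table was selected by p on these libraries, the small untreated SD is a weak yardstick. Its neighbour on the same strand, the erythrocyte anion exchanger slc4a1a, lay 2078 bases away and was higher by 0.37 (SE 0.14). The related gene ubtfl, on chromosome 2, was at 5.70, 5.79 and 5.77 in untreated and 6.12, 6.08 and 6.31 in treated larvae, a difference of 0.42 (SE 0.12). The gene named TAF1C in the table, which encodes an SL1 subunit, was also at 0.42 (SE 0.12), although the reference table gives this identifier the name si:ch1073-170h8.3.

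RNA polymerase II depends on TFIID and on Mediator, which links it to bound factors. The Mediator genes med15 and med19b were at 0.51 and 0.43 (SEs 0.17 and 0.12), and med15 was at 0.34 without H2O2 replicate 3. TAF4, a TFIID subunit, was instead lower, at 2.49, 2.44 and 2.29 in treated against 3.10, 2.95 and 2.81 in untreated larvae. The groups stood clear of each other, with a difference of −0.54 (SE 0.13, limma adjusted p = 0.473). The model named tbpl2 in the table was at 0.41, but the reference table names it ATG14, so whether it stands for the TBP relative or for the autophagy gene is uncertain. The helicase gene rad54l2 was at 0.46, or 0.27 without H2O2 replicate 3. Of 60 symbols of Mediator, TFIID and polymerase I genes 7 were in the table, of which 6 were higher, 1 was lower and 0 passed, with a median of 0.42 beside 0.40 for the whole table, and all 7 are among the genes described here.

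The 9 genes that carry a matching family name but were grouped apart from the DNA-binding factors were split, with 4 higher and 5 lower. Among them cnot7 had the most negative difference of the 63 genes. CNOT7 is a catalytic deadenylase of the CCR4-NOT complex, which shortens the poly(A) tail of mRNA. Its reads numbered 112, 114 and 89 in untreated and 43, 40 and 35 in treated libraries, corresponding to 2.18, 1.95 and 1.88 and to 1.27, 1.21 and 1.27. The treated libraries were close together and far below the untreated ones, at a difference of −0.75 (SE 0.12, limma adjusted p = 0.175), or 0.46 times the untreated mean CPM. The gene lies on chromosome 14 from 31283387 to 31294483. By contrast, zfp36l1a, whose protein brings such deadenylases to AU-rich mRNAs, was at 0.44 (SE 0.12), with 6.66, 6.48 and 6.50 in treated against 6.12, 6.06 and 6.15 in untreated larvae. From 30 symbols of mRNA decay genes only these and dcp1a, a decapping subunit, at 0.40 (SE 0.17), were in the table.

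The rest included ribosome and membrane proteins. ANKZF1, called Vms1 in yeast, frees stalled chains from ribosomes, and ankzf1 was lower in each treated library, at 3.27, 3.24 and 2.92 against 3.70, 3.57 and 3.62. This difference was −0.48 (SE 0.13, limma adjusted p = 0.675). SEC16B, a protein of endoplasmic reticulum exit sites, was at −0.45 (SE 0.13), and its model overlapped that of gadd45ab, which was at −0.43, by 207 bases on the opposite strand. Strand-specific counting is not stated, so reads in the shared part cannot be assigned. ZC3H8 was at −0.42, but the reference names it zc3h6, so its identity and role are uncertain. The gene zfyve26, of an endosome and lysosome protein, was at −0.35. On the higher side stood zswim6, with 4.49, 4.38 and 4.26 in untreated and 4.92, 4.76 and 5.13 in treated larvae, a difference of 0.56 (SE 0.14, limma adjusted p = 0.535). It was followed by zcchc9 at 0.50, or 0.31 without H2O2 replicate 3, and by zufsp, a ubiquitin chain peptidase, at 0.41.

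H2O2 replicate 3 carried much of the difference in a subset of the higher genes, at a share close to that of the table. The difference was more than 1.5 times larger with H2O2 replicate 3 than without it in 14 of the 48 higher genes. In the table this held for 123 of the 414 higher genes. Among the lower genes it held for 0 of the 15, beside 34 of the 256 in the table. Apart from the 13 named above with their values, the 14 higher genes included dmrt3a, at 0.27 without the library. Without it the median of the 48 higher genes was 0.35 in place of 0.42, and that of the 15 lower genes was −0.51 in place of −0.47. In the lower genes replicate 3 was the farthest treated library in 5 of 15, compared with 147 of the 256 lower genes in the table. The spread among treated libraries exceeded that among untreated ones in 47 of the 63 genes, with a median SD of 0.15 against 0.07. The table had the same trait, in 518 of 670 genes, with a median SD of 0.22 against 0.09. No gene changed its direction when any 1 of the 6 libraries was left out, which held for all 670 genes of the table.

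**Figure D4:**
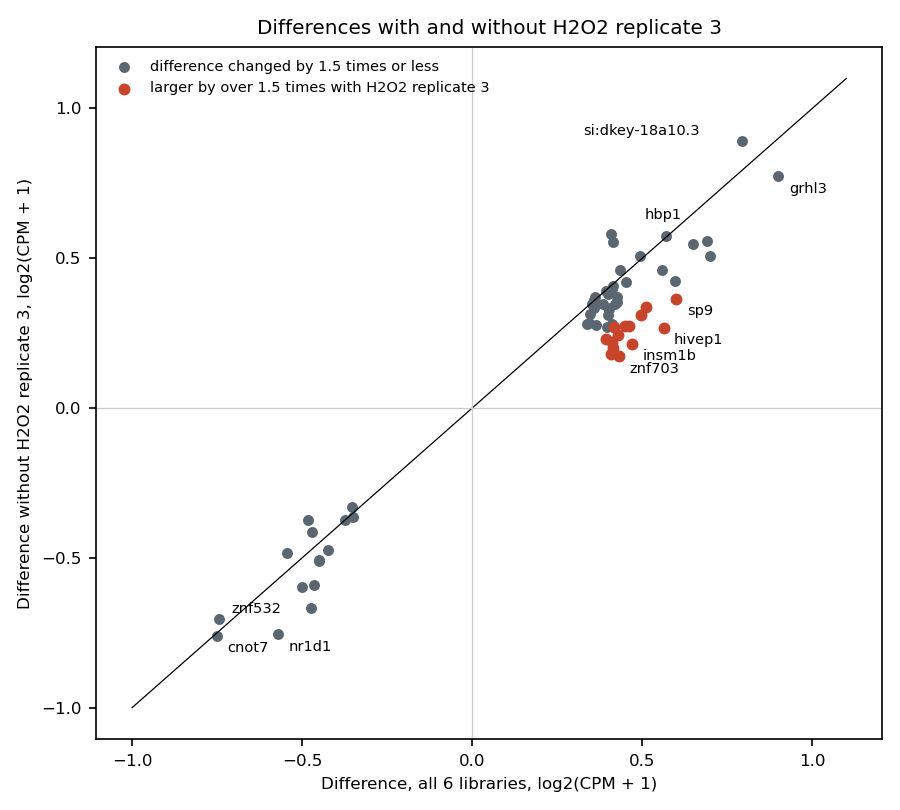
Each point is 1 of the 63 genes, with its difference in log2(CPM + 1) over all 6 libraries on the horizontal axis and without H2O2 replicate 3 on the vertical axis, and the line marks equal values. The 14 red points, all among the higher genes, have a difference more than 1.5 times larger with that library, down to 0.17 without it in znf703, whereas hbp1, znf532 and cnot7 lie close to the line.

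The genes were spread over 24 chromosomes, with 7 on chromosome 19 and 6 on chromosome 16, which held 25 and 33 genes of the table. Whether direction goes with chromosome was not tested. All 6 on chromosome 16 were higher, as were 76.2% of the 63 genes. They were ZBTB7B, nr0b2a, pogzb, znf526, znf574 and zufsp, and ZBTB7B and nr0b2a lay 64702 bases apart. On chromosome 19, where ATF6B, adnp2b, hivep1, rxrba, sp4 and znf687b were higher, only grhl2b was lower. Both genes on chromosome 13, ZC3H8 and zfyve26, and both on chromosome 8, rorca and tcf7l1b, were lower, and zfyve26 stood 8550 bases from plek2, which was higher by 1.35.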

How the data were processed

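Values were taken from a single table of 670 genes, in which the authors deposited log2(CPM + 1) for each of 3 untreated and 3 H2O2 libraries of whole larvae. By the study's methods, the authors trimmed the reads, quantified them with RSEM on Ensembl transcripts of the Zv9 assembly, computed CPM, tested with edgeR and kept genes by p and by expression. Submitters' processing notes also name FastQC, TopHat, Bowtie2 2.0.9, Cufflinks and Cuffdiff. Fold changes, p-values and false discovery rates deposited by the authors were not used, nor were tables of increased and decreased genes that repeat the main one, and a list of other gene identifiers, those the authors deposited as uncharacterized, served only to leave genes out. Gene symbols and Zv9 positions are those of the files, and 53 of the 63 genes had a name in the RefSeq-based reference table.

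A linear model of treatment was fitted to all 670 genes in limma 3.58.1 under R 4.3.3, with empirical Bayes moderation (prior degrees of freedom 4.405) and two-sided p-values. The Benjamini-Hochberg adjustment counted 24050 tests, the number of genes the authors' selection started from, because the table holds only genes already selected by p. Scripts were tested on simulated data. Low values fall on steps of whole reads, from which library totals were computed, but no count model was fitted because only selected genes are listed. For the same reason no other scaling of the libraries could be tried.

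Groups and replicate numbers came from the labels. Replicates were separate pools. The p-values and SEs rest on the spread between these pools, moderated toward a variance estimated over the listed genes, which were selected by p. The genes, pathway lists and marker lists (photoreceptor, neuron, epidermis, liver, intestine, muscle and erythrocyte) were chosen with earlier results of these data known. Every gene is named, and the value in every library is given for the 10 largest positive and 10 most negative differences, the nuclear receptors and the related pairs. Alternatives were pseudocounts of 0.1 and 5, a trend, robust or no moderation, a mean log2 value of at least 3, adjustment over the table alone, a replicate block, and leaving out each library.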

Additional observations from a re-analysis of the deposited data

How the results depend on the processing

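All 63 genes kept their direction under every alternative that could include them, and 55 had a mean log2 value of at least 3. Only the pseudocounts and leaving out a library could alter a difference, since the other settings change its SE or p alone. The table was selected by p on these libraries, and 0 of its 670 genes reversed when any 1 library was left out. Adjusting over the 670 selected genes alone gave 58 genes past 0.05 in limma in place of 0, since that adjustment disregards the genes left out by p. With a replicate block, 1 gene passed, grhl3, at an adjusted p of 0.0186 from limma. Deviations from the group means in libraries with the same number had correlations of −0.00137, −0.105 and −9.64e-05 across the 670 genes. These genes were selected by p on the same libraries, so the correlations cannot decide whether such libraries share more than a number. The block left 43 higher and 13 lower genes at an unadjusted p under 0.05. Leaving out 1 library at a time gave 24 to 45 genes higher at an unadjusted p under 0.05, with the lowest counts of 24 and 28 without untreated replicates 3 and 2, and the cause was not tested. It gave 10 to 15 lower genes and 0 genes past the adjusted threshold in each case. With 3 libraries a group, and with reads as low as 35 in cnot7, small differences in weakly covered genes are held loosely, and the selection of the table by p on the same libraries leaves no independent measure of these genes.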
